A study of Mus musculus with 2 samples.

Results

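Lysosomal enzymes, carriers and membrane proteins were described in mouse neutrophils as a list of 41 genes chosen by name, out of 55536 annotated genes. Each symbol matched 1 annotated gene. The cells were primary neutrophils labelled as from the spleen of male B6CASTF1/J mice, 59 days old, the F1 hybrid of C57BL/6 females with CAST/EiJ males. Total RNA was read in 2 libraries, labelled biological replicates 1 and 2 of 1 group, with 300 ng of RNA taken for each and ERCC control RNA spiked in. No genotype change or treatment is labelled, and no second group exists, so the data answer how strongly these genes are expressed, which of their annotated transcripts take the reads and how far the libraries differ. Their biosample labels differ and their donor label is shared. No label says that 2 animals were used, so the replicate spread may be technical.

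Lysosomes are acid compartments in which proteins, glycans and lipids taken up or discarded by the cell are broken down. A proton pump of the vacuolar type (V-ATPase) acidifies them, soluble hydrolases work at that pH, and heavily glycosylated proteins line the membrane. Many of their genes carry a short E-box-like element near the start, to which the transcription factors TFEB and TFE3 bind. In neutrophils, lysosomal hydrolases share the cell with the specialised granules, and azurophil granules hold several of the same enzymes.

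Promoter windows were searched first, for the element named above. RefSeq sequences of build GRCm38.p6, from 250 bases before to 50 after a start, were at hand for 36 of the 41 genes (42 promoters). Ctsb, Ctsh, Asah1, Npc1 and Atp6v1b2 had no entry. The 8-base element TCACGTGA, which reads the same on both strands, lay in the windows of 6 of the 36 genes (16.7%), against 1.12% of the 27025 genes in the table. These 6 genes were Ctsa, Ctsd, Mcoln1, Atp6v0d1, Atp6v1a and Gla. The 6-base core CACGTG, which lies inside the longer element and is also its own reverse complement, was found in 13 of 36 (36.1%), against 8.09% of all genes. The 10-base form, with G before and C after the element, was found in 0 of 36, against 0.370% of all genes. A match describes these letters only. The windows that hold the 8-base element are shown to compare its surroundings, each of 30 bases, 5′ to 3′ on the gene's strand, with the element in capitals. In Lamp1, which lacks the 8-base element, the 70 bases before the start are shown because they hold the core at 4 places, in capitals.
Ctsa (chr2:164833749-164833778): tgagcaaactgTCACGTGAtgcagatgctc
Ctsa (chr2:164833766-164833795): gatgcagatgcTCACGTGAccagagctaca
Ctsd (chr7:142387908-142387937, minus strand): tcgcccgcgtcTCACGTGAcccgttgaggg
Mcoln1 (chr8:3500462-3500491): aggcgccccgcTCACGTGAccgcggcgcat
Atp6v0d1 (chr8:105566050-105566079, minus strand): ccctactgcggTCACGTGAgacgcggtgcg
Atp6v1a (chr16:44139373-44139402, minus strand): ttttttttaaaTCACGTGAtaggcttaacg
Gla (chrX:134601215-134601244, minus strand): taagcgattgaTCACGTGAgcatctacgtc
Gla (chrX:134601182-134601211, minus strand): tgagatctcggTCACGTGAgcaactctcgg
Lamp1 (chr8:13159091-13159160): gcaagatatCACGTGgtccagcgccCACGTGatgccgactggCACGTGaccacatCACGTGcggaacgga

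Ctsa and Gla each held the element at 2 places, and the other 4 genes at 1. Counted from the RefSeq start, the first base of the element stood at -13 and 5 in Ctsa, at -4 in Atp6v0d1, at -46 in Mcoln1 and at -99 in Ctsd. It stood further upstream in Atp6v1a (-132) and Gla (-228 and -195). The remaining genes with the core alone were Lamp1, Arsa, Glb1, Lgmn, Naglu, Gaa and Ctsl. Genes with and without the core did not separate by level. The 13 genes with it ranged from 4.25 to 372 TPM with a median of 27.2, and the 23 without it in the window from 9.89 to 989 TPM with a median of 48.05. The 6 genes with the 8-base element had a median of 54.9 TPM. A further list of 104 lysosomal genes, described at the end, held the 8-base element in 9 of the 79 with a promoter entry (11.4%), the core in 20 (25.3%) and the 10-base form in 2 (2.53%).

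**Figure D1:**
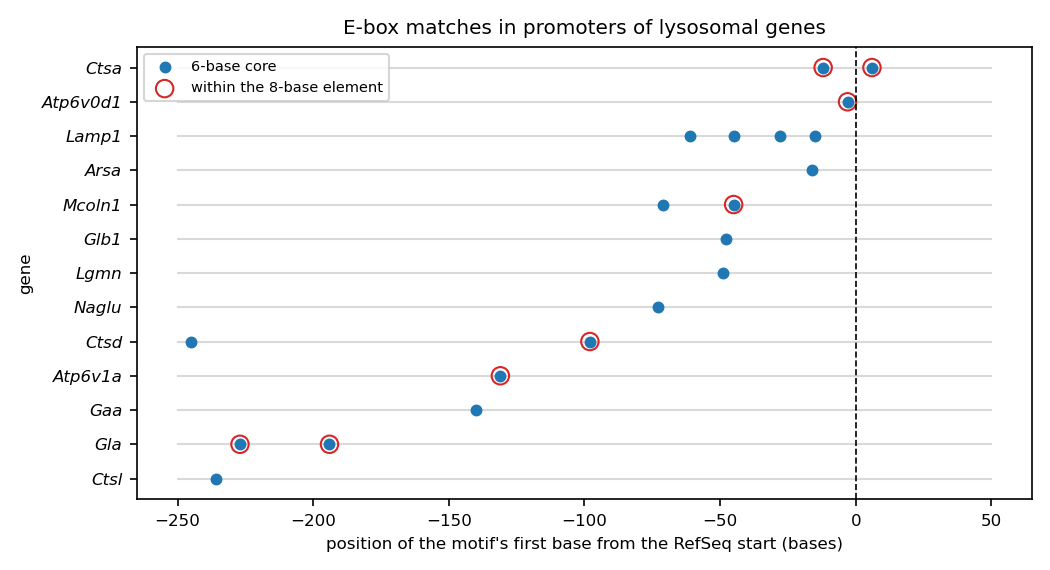
Positions of E-box matches in the promoters of 13 lysosomal genes. The horizontal axis gives the position of the core's first base from the RefSeq start in bases, each row is a gene with its searched window as a grey line, blue points are the 6-base core and red rings mark a core that lies within the 8-base element. The 6 ringed genes are spread over the window, and Lamp1 has 4 cores before its start.

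All 41 genes were expressed. TPM (a level scaled by transcript length and by the library's total) was at least 1 in both libraries for 41 of 41, at least 10 for 36 and at least 100 for 8. Across the 10474 protein-coding genes with a mean of at least 1 TPM, 55.9% reached 10 and 6.61% reached 100 in both. The median over the 41 genes was 40.02 TPM, against 13.1 for those 10474 genes. The further list of 104 lysosomal genes, not filtered by level, had a lower median of 18.2 TPM. In the same ranking, 34 of the 41 lay above the median, 13 in the highest decile and 7 below the median. Together they took 0.808% of the reads of annotated genes in replicate 1 (exact Clopper-Pearson 95% interval 0.804 to 0.812) and 0.769% in replicate 2 (0.765 to 0.773), ribosomal RNA genes left out. These intervals cover counting error only. In RNA from a whole cell preparation, fewer cells of a type and less RNA per cell cannot be told apart.

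**Figure D2:**
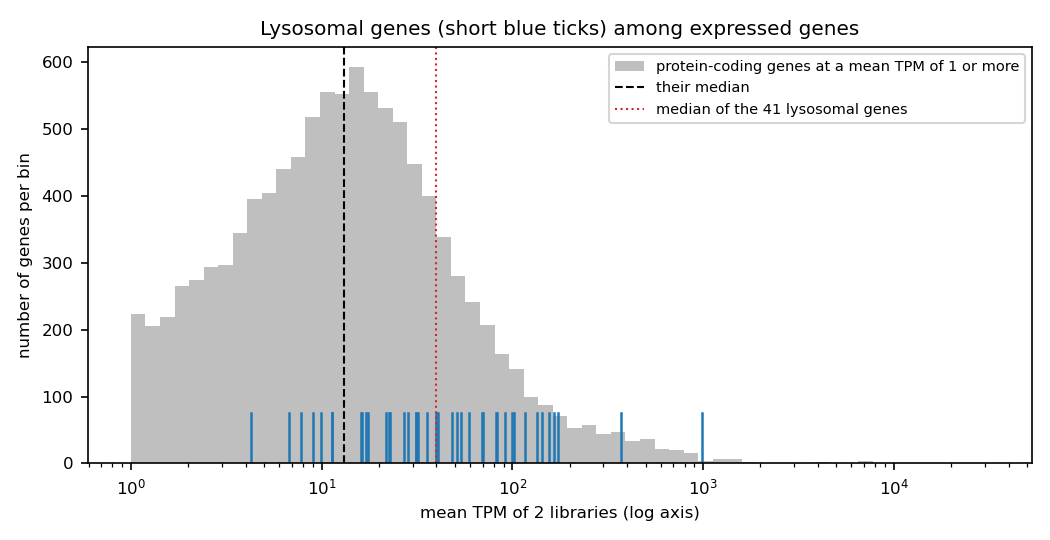
Mean TPM of 2 libraries on a log axis for the 10474 expressed protein-coding genes (grey bars, number of genes per bin) and for the 41 lysosomal genes (short blue ticks). The dotted line at the lysosomal median of 40.02 TPM lies to the right of the dashed line at the median of all expressed genes, 13.1 TPM, and 7 ticks lie to the left of the dashed line.

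Lipid-handling proteins held both the highest gene of the list and one of the lowest. Psap (ENSMUSG00000004207.14, chr10:60277627-60302597 on mm10) encodes prosaposin, the precursor of the saposins that present sphingolipids to their hydrolases. It stood at 1002 TPM in replicate 1 and 976 in replicate 2 (mean 989 ± 18.1, SD, n = 2), rank 26 among protein-coding genes. Psap alone gave 32.6% of the reads of the 41 genes in replicate 1 and 33.2% in replicate 2. Npc2, the soluble cholesterol carrier of the lysosome lumen, followed at 53.35 and 49.5 TPM. Asah1 (acid ceramidase) was at 42.3 and 37.75 TPM, and Lipa (acid lipase, which frees cholesterol from its esters) at 31.05 and 31.5 TPM. Ppt1, which removes palmitate from proteins, was at 23.6 and 22.2 TPM. The lowest of the 7 were Galc (galactosylceramidase), at 10.9 and 11.7 TPM, and Smpd1 (acid sphingomyelinase), at 9.55 and 10.2 TPM. The group median was 31.3 TPM, so Psap stood far from the rest of its group in both libraries.

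Proteases formed the group with the highest median among those with more than 1 gene, 91.2 TPM over 9 genes, and 4 of the 9 reached 100 TPM in both libraries. Ctsd (ENSMUSG00000007891.16, chr7:142375911-142388038) encodes the aspartic protease cathepsin D. It stood at 397 TPM in replicate 1 and 347 in replicate 2 (mean 372 ± 35.6, SD, n = 2), below Psap and above every other member. The cysteine cathepsins that followed were Ctsh at 163 and 168 TPM, Ctsb at 142 and 143 and Ctss at 116 and 117. Cathepsin S is known for trimming the invariant chain in antigen-presenting cells. The carboxypeptidases Ctsa, which also shields β-galactosidase and neuraminidase in a complex, and Ctsz were at 95.6 and 86.8 and at 85.9 and 80.3 TPM. The lower 3 were Ctsl at 32.5 and 38.6 TPM, Tpp1 (tripeptidyl peptidase) at 21 and 24.1 and Lgmn (legumain, an asparaginyl endopeptidase) at 7.84 and 7.76. Legumain was therefore the lowest protease in both libraries.

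Enzymes that cut glycans had a median of 27.9 TPM over 10 genes. Man2b1 (lysosomal α-mannosidase) led at 139 and 129.6 TPM, and it was the only one of the 10 that reached 100 TPM in both libraries. Hexa, the α subunit of β-hexosaminidase, was at 71.1 and 68.7 TPM, and Fuca1 (α-fucosidase) at 58.6 and 49.0. Neu1, the sialidase that needs Ctsa, was at 34.1 and 28.5 TPM. Gusb (β-glucuronidase) was at 29.0 and 28.05 TPM, and Gla (α-galactosidase) at 27.0 and 27.4. Gaa, the acid α-glucosidase that breaks down glycogen, was at 17.8 and 16.2 TPM, and Manba (β-mannosidase) at 11.4 and 11.1. Glb1, the β-galactosidase that Ctsa shields, was at 9.6 and 8.42 TPM. Naglu, an enzyme of heparan sulfate breakdown, was the lowest member of all at 4.21 and 4.29 TPM. It rested on 389 reads in both libraries together. Of the 2 sulfatases, Arsb, which acts on dermatan and chondroitin sulfate, was at 21.6 and 21.98 TPM, above the median of expressed protein-coding genes. Arsa, which acts on sulfatide, was below that median, at 6.84 and 6.59 TPM.

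Membrane proteins had a median of 38.5 TPM over 6 genes. Lamp1 and Lamp2 encode the main glycoproteins of the lysosomal membrane, and stood at 178 and 171 TPM and at 105 and 99.3 TPM. Cd63, a tetraspanin that is also a marker of azurophil granules, was at 58.5 and 60.6 TPM. Npc1, the membrane partner of Npc2 in cholesterol export, was at 17.1 and 17.9 TPM, Scarb2, the carrier of β-glucocerebrosidase, at 16.3 and 16.4, and Mcoln1, the calcium channel mucolipin 1, at 16.05 and 16.3. The last 3 thus lay within a narrow range, and each was above the median of expressed protein-coding genes. Among V-ATPase genes, Atp6v1b2 (a catalytic-sector subunit) was at 99.6 and 99.5 TPM and the accessory protein Atp6ap1 at 85.7 and 78.2. Atp6v0d1, of the membrane sector, was at 72.05 and 66.1 TPM, and Atp6v1a, the ATP-hydrolysing subunit, at 41.7 and 39.8. All 4 exceeded 10 TPM and none reached 100 in either library. Grn, the precursor of the granulins, was at 164 and 148 TPM. The regulators Tfeb and Tfe3 were at 50.35 and 45.75 TPM and at 34.5 and 29.7 TPM.

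**Figure D3:**
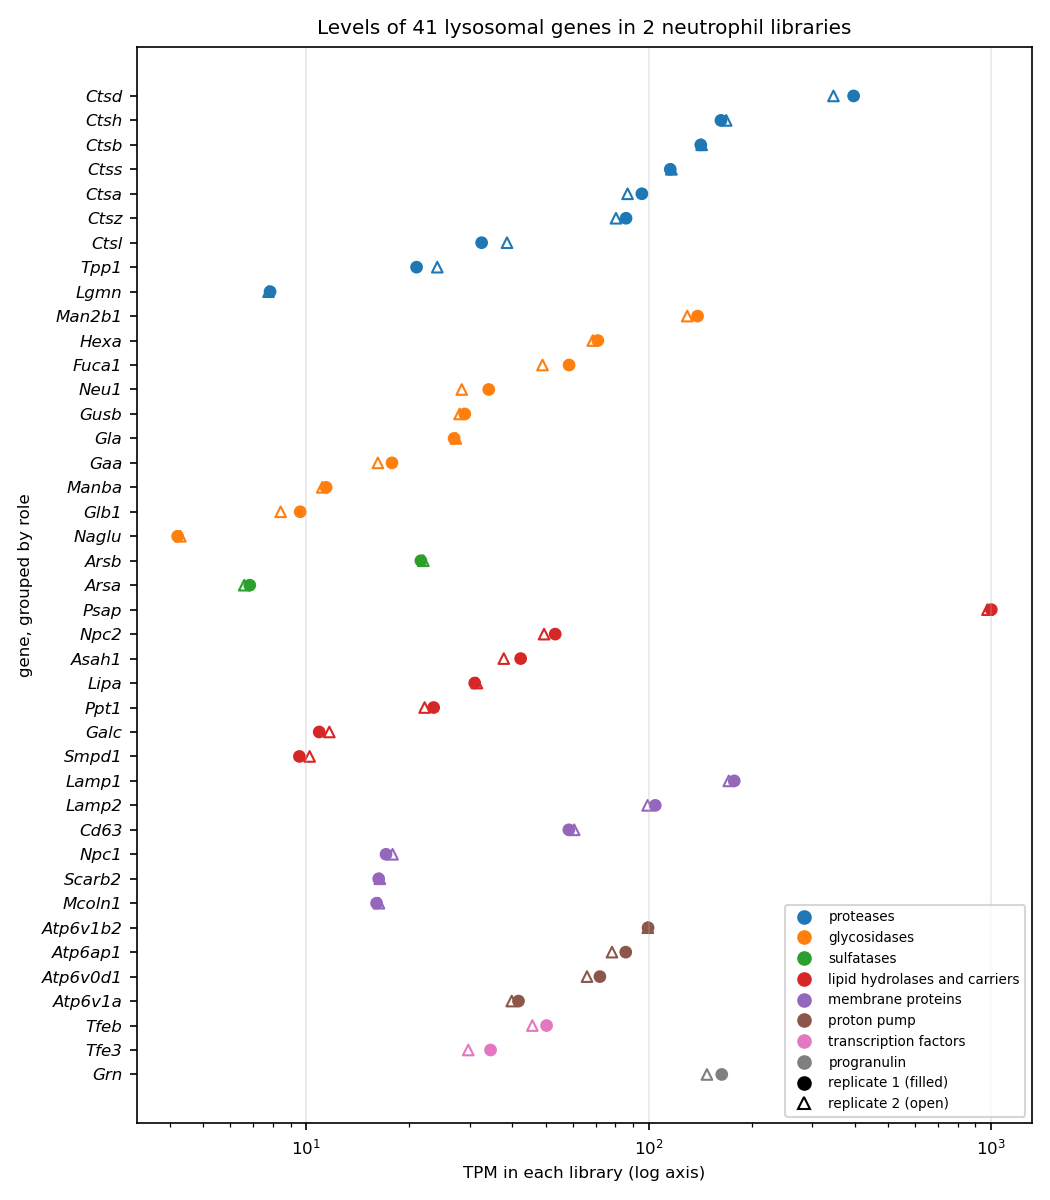
TPM of each of the 41 lysosomal genes in replicate 1 (filled circles) and replicate 2 (open triangles), on a log axis, with genes ordered by level within each role group and coloured by group. Psap, at 1002 and 976 TPM, stands apart from the other lipid-handling genes, and the markers of the 2 libraries lie close together for every gene.

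In the order of mean TPM, neighbours were separated where their libraries did not overlap. This held for 21 of 40 neighbouring pairs, and 19 pairs overlapped. At the head of the order Psap, Ctsd, Lamp1 and Ctsh were separate from one another, while Ctsh and Grn overlapped. Below them Grn, Ctsb, Man2b1, Ctss and Lamp2 were each separate from the next, and Lamp2 overlapped Atp6v1b2. At the foot, Smpd1 overlapped Glb1, and Glb1, Lgmn, Arsa and Naglu were separate from one another. With 2 libraries this is a description of spread and no test.

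Differences between the libraries at these genes were small in size. The median absolute log2 ratio was 0.083 over the 41 genes, 0.137 over all genes tested and 0.123 over the expressed protein-coding genes. The SD of the 2 TPM values was at the median 3.64% of the mean, and at most 12.8%. Estimated reads of the libraries were compared by an exact binomial test (two-sided), with Benjamini-Hochberg adjustment over the 12437 genes that had at least 50 summed reads. Called genes had an adjusted p no higher than 0.05 together with a 2-fold or larger difference. By that rule 0 of 41 were called, against 2.25% of all genes tested. Unadjusted p by this test was under 0.05 for 17 of the 41, against 4291 of the 12437 genes tested. A negative binomial test in edgeR, whose spread came from the same libraries, called 0 of 41 against 1.59% of all tested. That test gave an unadjusted p under 0.05 for 0 of 41, against 636 of the 12437. Beside shares of 2.25% and 1.59%, a count of 0 of 41 does not set these genes apart from the rest. The 95% interval of the ratio, which covers counting error only, lay within 1.5-fold for all 41 genes. The interval of Glb1 reached furthest from 1, at 0.749 to 0.998. These p-values compare 2 libraries of 1 group, not conditions.

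Without the demand on size, the binomial test separated the libraries at 13 of the 41 genes, and all 13 were lower in replicate 2. Over all genes tested 12.9% were lower and 11.8% higher by that rule. The 13 were Ctsd, Ctsa, Man2b1, Fuca1, Neu1, Psap, Npc2, Lamp2, Npc1, Atp6v0d1, Atp6v1b2, Atp6ap1 and Grn. The median log2 ratio, replicate 2 over replicate 1, was -0.07 over the 41 genes and -0.00 over all tested, and 28 of 41 ratios were below 0, against 50.1% of all. Ctsd fell from 12355 to 10428 reads, a log2 ratio of -0.21 (0.866-fold, 95% interval 0.843 to 0.889, adjusted p = 1.23e-25 by the exact binomial test). That interval and p-value hold counting error only, and the negative binomial test in edgeR gave Ctsd an unadjusted p of 0.382. Neu1 went from 1723 to 1475 reads, a log2 ratio of -0.19 (adjusted p = 0.00201 by the same exact test). For Glb1 the log2 ratio was also -0.21, from 421 and 355 reads, but the adjusted p was 0.133. For Npc1 it was -0.19, from 1355 and 1156 reads (adjusted p = 0.00581, exact binomial test), while its TPM was 17.1 in replicate 1 and 17.9 in replicate 2. Reads and TPM therefore order the libraries differently for Npc1. The 4 V-ATPase genes of the list all had ratios below 0, 3 of them at an adjusted p of at most 0.05 (exact binomial test). Of 13 further V-ATPase genes tested, 10 had ratios below 0 and 3 above, and 1 was lower by that rule.

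**Figure D4:**
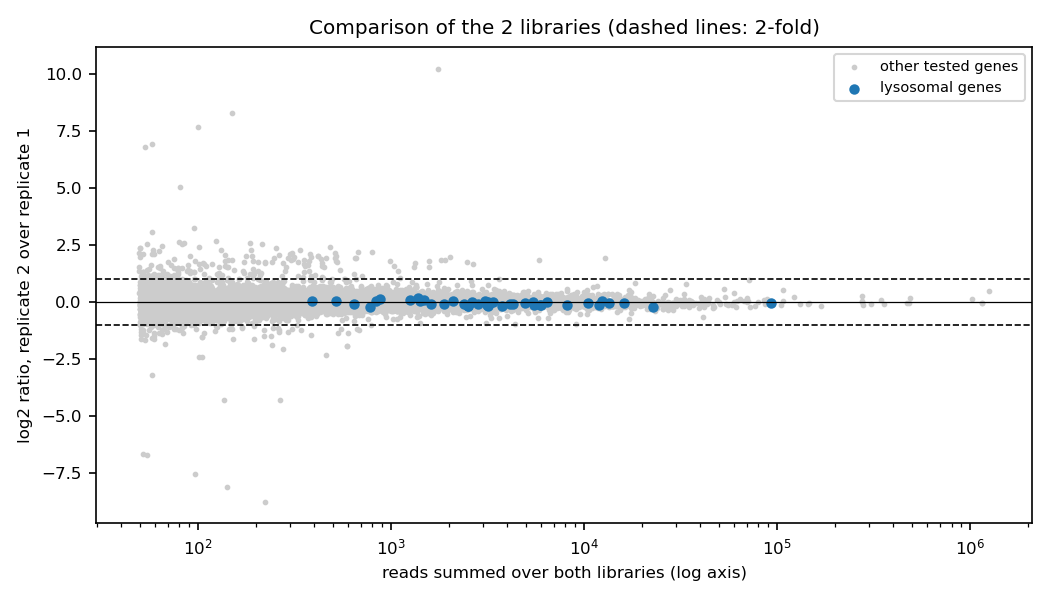
Log2 ratio of replicate 2 over replicate 1 against the reads summed over both libraries (log axis) for the 12437 genes tested, lysosomal genes in blue and the rest in grey, with dashed lines at 2-fold. The 41 blue points run from 389 to 92489 reads and stay between the dashed lines, the furthest at a log2 ratio of -0.21.

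Markers of some other cells also moved between the libraries. Neutrophil markers were high, 10 of 10 at 100 TPM or more in both libraries, with S100a8 at 20153 and 18436 TPM. Of the 10, 8 were lower in replicate 2 at an adjusted p of at most 0.05 by the binomial test. Camp was higher by that rule, and none of the 10 was called at 2-fold. Erythroid markers were called higher in replicate 2 in 5 of 5 cases, from a summed level of 24.4 to 78.0 TPM. B cell markers were called lower in 4 of 5, from 31.8 to 18.55 TPM summed, and 4 of 4 promyelocyte markers were higher at an adjusted p of at most 0.05 without reaching 2-fold. Of 3 eosinophil markers, 2 were lower by that rule, Prg2 at 54.5 and 36.8 TPM and Epx at 8.12 and 5.3. Among 4 dendritic cell markers tested, 1 was lower, Itgax at 12.4 and 5.76 TPM. No difference at that adjusted p was found for 3 basophil and 3 platelet markers. The 5 T cell markers had too few reads to be tested. Macrophages and monocytes are rich in lysosomes. Of 14 macrophage markers, 6 were under 1 TPM in both libraries. C1qa, with too few reads to be tested, was at 1.46 and 0.58 TPM and Adgre1 at 19.07 and 14.01. The list summed to 95.7 and 91.5 TPM, of which Slc40a1 gave 52.5 and 53.7. Of the 6 macrophage markers tested, 3 were lower in replicate 2 at an adjusted p of at most 0.05 by the binomial test. The same rule found 1 higher, Siglec1 at 1.07 and 1.75 TPM, and none was called at 2-fold. Monocyte markers were present, 8 of 8 above 10 TPM, with Csf1r at 122 and 105 and a summed level of 2129.9 and 1926 TPM. Of those 8, 6 were lower in replicate 2 at an adjusted p of at most 0.05 by the binomial test and 1 was higher, none at 2-fold. The part of these cells in the lysosomal levels and in the ratios between the libraries was not tested.

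Transcripts annotated as coding took most of the reads for most genes. The 41 genes have 238 annotated transcripts, 112 of them coding and 77 annotated as retaining an intron, and only Ctsz and Hexa have 1. At the median, coding transcripts held 94.0% of a gene's estimated reads in replicate 1 and 93.9% in replicate 2. They held at least 90% in both libraries for 22 genes, under 80% for 10 and under 50% for 4. Those 4 were Arsa, Neu1, Ctsh and Mcoln1. In total RNA, unspliced and partly spliced molecules are sequenced along with mature mRNA, and the tables assign reads to transcripts by estimation, so these shares describe the annotation that best took the reads.

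**Figure D5:**
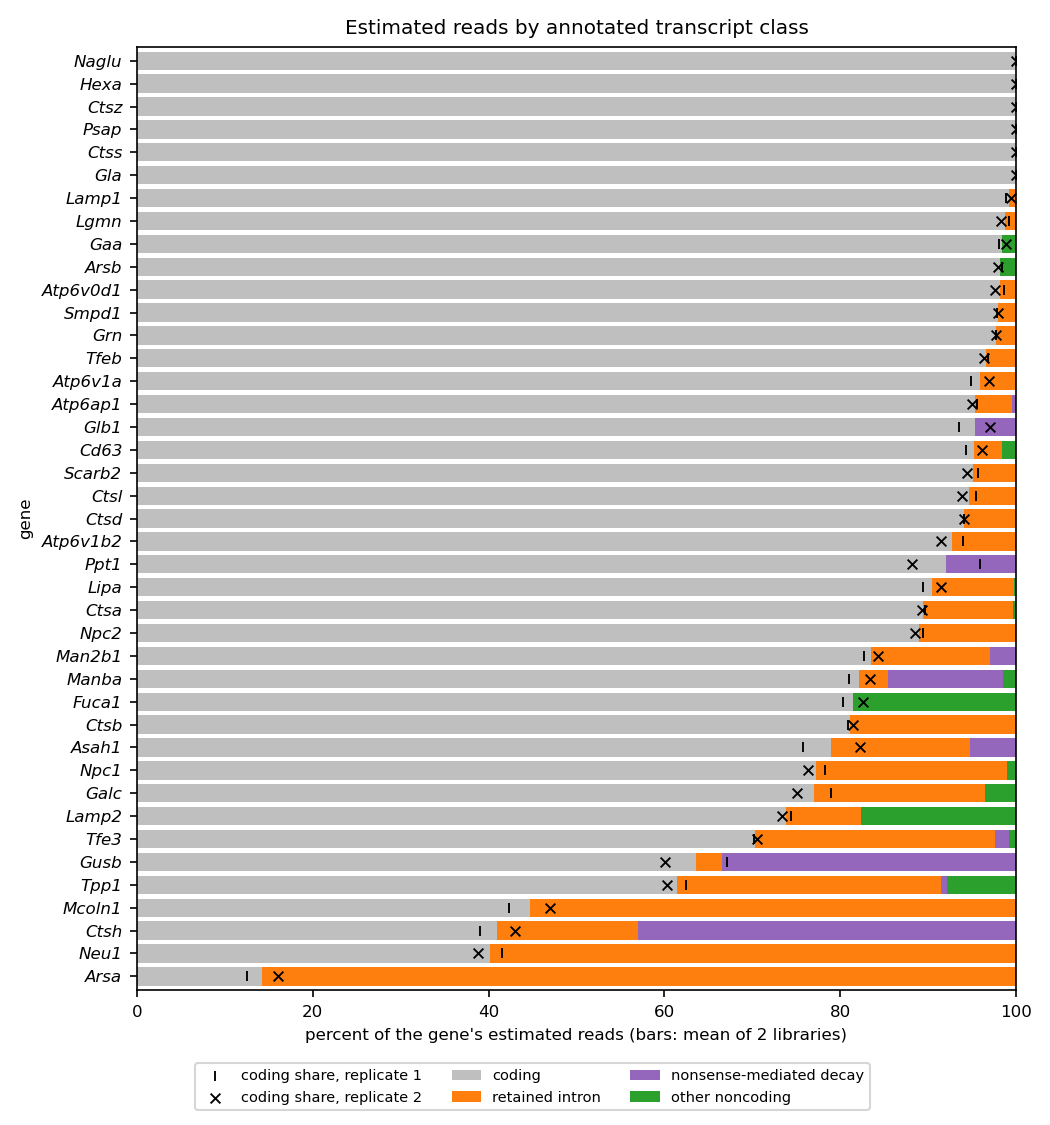
Share of each gene's estimated reads by annotated transcript class (bars, mean of 2 libraries, in percent), with the coding share in replicate 1 (vertical ticks) and replicate 2 (crosses). Coding transcripts fill the bar for genes such as Naglu, Hexa and Psap, and take 12.6% and 16% of the reads of Arsa at the foot.

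By estimated reads in the first table, Arsa had the lowest coding share of the 41 genes. Its transcript Arsa-201, annotated as retaining an intron, took 87.4% of the gene's reads in replicate 1 and 84.0% in replicate 2, and the coding Arsa-202 took 11.6% and 14.6%. In the second deposited transcript table Arsa-201 led as well, at 63.3% and 64.6% of the gene's TPM. By TPM in that table, coding transcripts held 36.7% and 35.4% for Arsa, and less for Tpp1 (18.45% and 13.2%) and Fuca1 (20.1% and 23.6%). Compared with Arsa-202, Arsa-201 keeps intron 4 of 8, which lies between coding exons at chr15:89474710-89474786 on mm10 and is 77 bases long. The intron is short enough to show whole, in capitals on the gene's strand with 20 bases of exon on each side. It opens with GT and closes with AG.
Arsa intron: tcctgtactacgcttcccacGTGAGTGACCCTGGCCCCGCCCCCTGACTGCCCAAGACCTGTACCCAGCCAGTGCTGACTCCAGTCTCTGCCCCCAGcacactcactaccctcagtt
The tables do not count reads over the intron separately, and the 2 transcripts also differ at their ends, so the share does not measure how often this intron is kept. The TPM of Arsa, 6.84 and 6.59, is mostly that of a transcript annotated as noncoding.

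Neu1, Ctsh and Mcoln1 split their reads between coding and noncoding transcripts. Neu1-202, which keeps intron 3 of 5 (chr17:34932829-34934002, 1174 bases, between coding exons), took 57.2% and 60.6% of reads, and the coding Neu1-201 41.5% and 38.8%. Per length they were close, at 43.3% and 48.8% of the gene's TPM for Neu1-202 and 46.6% and 46.4% for Neu1-201. For Ctsh the leading transcript of the first table was Ctsh-202, annotated as a target of nonsense-mediated decay, at 43.8% and 42.3% of reads, with Ctsh-201 (coding) at 29.8% and 29.6%. In the second table Ctsh-202 took 33.8% and 28.4% of Ctsh TPM, the coding Ctsh-204 led in replicate 2 at 33.6%, and coding transcripts together held 53.0% and 60.2%. In Mcoln1 the coding Mcoln1-201 had 37.3% and 42.3% of reads and Mcoln1-205, with a retained intron, 36.2% and 32.4%. Gusb gave 29.7% and 37.2% of its reads to Gusb-206, also a target of nonsense-mediated decay by annotation, and 16.5% of its TPM in both libraries of the second table. In Tpp1, Tpp1-206 keeps intron 3 of 12 and took 24.3% and 19.5%.

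Short noncoding transcripts raised shares of TPM without many reads. Ctsb-202, 801 bases long and annotated with a retained intron, took 55.8% and 53.9% of Ctsb TPM by the second table but 16.8% and 15.7% of reads in the first. The coding Ctsb-201 held 80.9% and 81.4% of reads. The gene's coding share is therefore high by reads and lower per length. In Fuca1 and Ctsl the 2 deposited tables also differed in level. The second table summed to 109 and 80.3 TPM for Fuca1, against 58.6 and 49.0 in the gene table, a ratio of 1.87 and 1.64. For Ctsl it summed to 60.7 and 74.8 TPM, against 32.5 and 38.6, a ratio of 1.87 and 1.94. These were the only members that differed by more than 1.5-fold in both libraries. Over the 41 genes the ratio ran from 0.797 to 1.94, with medians of 1.11 and 1.02, against 1.12 and 1.06 for all expressed protein-coding genes. Most of the Fuca1 excess lay in short noncoding transcripts: Fuca1-205, of 401 bases, took 32.2% and 29.5% of its TPM in the second table.

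Lamp2 has splice forms that differ in their last coding exon, and the reads divided between them. The forms share the lumenal part and differ in the membrane span and the cytoplasmic tail. The form encoded by Lamp2-201 is known as LAMP2A, the receptor of chaperone-mediated autophagy. Lamp2-202 led at 57.4% and 58.0% of reads, Lamp2-201 took 15.7% and 13.9%, and Lamp2-203 1.27% and 1.53%. Per length, Lamp2-202 took 46.0% and 46.8% of the gene's TPM in the second table, Lamp2-201 24.0% and 22.03%, and Lamp2-203 2.51% and 2.35%. The order of the 3 was the same in both libraries and both tables. Of the other reads, 17.1% and 18.1% fell to Lamp2-205, a noncoding transcript at the 5′ end. The coding part of each last exon is shown from mm10, minus strand of the X chromosome, with the last 15 coding bases before the stop codon in capitals, which encode the end of the cytoplasmic tail.
Lamp2-201 (chrX:38405435-38405571): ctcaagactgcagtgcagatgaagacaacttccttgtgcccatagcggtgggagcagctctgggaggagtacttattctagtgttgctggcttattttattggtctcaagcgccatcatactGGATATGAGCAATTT
Lamp2-202 (chrX:38421715-38421851): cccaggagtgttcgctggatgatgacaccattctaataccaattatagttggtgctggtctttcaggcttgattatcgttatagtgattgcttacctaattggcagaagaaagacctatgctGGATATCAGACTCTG
Lamp2-203 (chrX:38402142-38402281): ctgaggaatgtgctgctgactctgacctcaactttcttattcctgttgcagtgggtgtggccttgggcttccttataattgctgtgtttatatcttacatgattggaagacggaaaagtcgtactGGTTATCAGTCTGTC

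Transcript splits were stable for some genes and not for others. In 12 genes the leading transcript took under 50% of the TPM in both libraries: Ctsd, Ctsh, Lamp2, Fuca1, Tfeb, Ctsl, Tfe3, Neu1, Gusb, Tpp1, Gaa and Mcoln1. The leading transcript was the same in both libraries for 38 of 41 genes and in both libraries and both tables for 29. Psap-202 took 51.6% of Psap reads in replicate 1 and 65.2% in replicate 2, and Psap-203, which starts further downstream, 47.4% and 33.4%. The second table gave Psap-202 89.9% and 90.2% of TPM. In Lgmn, Lgmn-202 took 70.1% of reads in replicate 1 and 12.8% in replicate 2, and Lgmn-201 29.2% and 85.6%. In the second table Lgmn-201 led in both libraries, at 46.6% and 71.7% of TPM. Ctsd divided between the coding Ctsd-202, at 52.7% of reads in both libraries, and Ctsd-201, at 41.4% and 41.3%. In the first table the divisions of Psap and Lgmn thus differed between the libraries and that of Ctsd hardly did, while in the second table that of Psap hardly differed either.

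Reads from neighbouring genes could bear on some levels. By annotation, 18 of the 41 genes overlap another gene and 6 overlap one on the same strand. The library kit marks strand, per the labels, but no source used here says whether the counting used it. Ppt1 overlaps Cap1 on the opposite strand by 129 bases, and Cap1 stood at 433 and 385 TPM against 23.6 and 22.2 for Ppt1. Npc1 overlaps Rmc1 by 967 bases on the opposite strand, with Rmc1 at 25.1 and 28.0 TPM. Glb1 holds Tmppe on the same strand, at 3.53 and 3.77 TPM, and the estimated reads of Glb1, Ctsd and Cd63 were not whole numbers. The estimated reads of Ppt1, Cap1, Npc1 and Rmc1 were whole numbers in both libraries. The part of neighbouring reads in the levels of Ppt1, Npc1 and Glb1 was not tested.

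Other genes of the organelle were taken from 5 lists of 104 genes. At least 1 TPM in both libraries was reached by 93 of the 104 and 10 TPM by 69, and 10 were under 1 TPM in both. Of 95 tested, 0 were called at 2-fold, against 2.25% of all genes. By the exact binomial test 27 had an unadjusted p under 0.05, against 4291 of the 12437 genes tested. The negative binomial test in edgeR called 1, against 1.59% of all tested. Acid hydrolases and cofactors were led by Plbd1, a phospholipase B-like protein, at 289 and 272 TPM, then Rnaset2b (a ribonuclease) at 93.1 and 94.05 and Ctsc, the dipeptidyl peptidase that activates granule serine proteases, at 61.7 and 65.95. Membrane proteins were led by Laptm5 at 381 and 327 TPM, Cln3 at 146 and 136 and Cd164 at 107 and 101. Further V-ATPase genes had a median of 41.7 TPM, led by Atp6v0c at 178 and 182, Atp6v0b at 155 and 144 and Tcirg1, the a3 subunit, at 113 and 109. Delivery was represented by Sort1 (sortilin) at 70.8 and 71.1 TPM, M6pr, the small mannose 6-phosphate receptor, at 59.85 and 59.95 and Gga1 at 37.2 and 35.5. Among regulators the Ragulator genes Lamtor4, Lamtor1 and Lamtor2 led, at 77.4 and 70.1, 55.9 and 54.3, and 34.7 and 37.8 TPM.

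The genes under 1 TPM in both libraries were Ctsk, Ctsw, Hyal1, Lamp3, Mcoln2, Mcoln3, Atp6v0d2, Atp6v0e2, Atp6v1b1 and Rragd. Several of them have a relative among the expressed genes. Ctsk, the osteoclast cathepsin, was at 0.34 and 0.23 TPM, and Atp6v0d2, the tissue-restricted relative of Atp6v0d1, at 0.24 and 0.4 TPM. Lamp3 and Atp6v1b1 had 0 reads in either library, which allows up to 3 reads each, so low expression was not detectable at this depth. The gene that edgeR's test found without the demand on size was Ctse (cathepsin E), chosen for mention after its values were seen. It stood at 32.8 TPM in replicate 1 and 65.3 in replicate 2, a ratio of 1.99-fold that missed the 2-fold threshold (edgeR adjusted p = 0.00449). In the same libraries 5 of 5 erythroid markers were higher in replicate 2, and their part in the value of Ctse was not tested.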

How the data were processed

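Total RNA was measured in 2 libraries of 1 group. Per the file headers, the authors' gene tables hold expected counts and TPM, and a first deposited transcript table adds the percent of a gene's TPM in each transcript. A second deposited transcript table gives estimated counts and TPM. The build is mm10 and the kit is directional, per the labels; no source used here names the programs. The totals were 18836093 and 18444369 estimated reads for replicates 1 and 2.

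Symbols, classes, introns and coordinates came from GENCODE release M21. Expected counts were rounded to whole numbers and compared with an exact conditional binomial test, scaled by reads of annotated genes other than ribosomal RNA (18060581 and 17609100), with Benjamini-Hochberg adjustment over genes with at least 50 summed reads. The log2 ratio used 0.5 added to each count. A fit by group was not possible with 1 group, so edgeR 4.0.16 gave a negative binomial test at a common coefficient of variation of 11.6%. DESeq2 1.42.0 gave alternative size factors. Other steps used R 4.3.3, Python 3.11.15, pandas 2.3.3 and scipy 1.17.1. The binomial test was tried on simulated counts that held counting error only. That trial cannot show how the test behaves where libraries spread further than counting error. P-values of the binomial test hold counting error only, and those of edgeR add the spread between the same 2 libraries.

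The members and all lists were chosen with earlier results of these data known. Every member is named with its level. Detail was given for the 6 highest and 6 lowest, the 4 with the largest ratio between libraries, those whose tables differ over 1.5-fold, those whose leading transcript is not coding or takes under 50%, and role groups of 4 or fewer. Of the other lysosomal genes, the 3 highest of each list and those under 1 TPM were named. Alternatives covered scaling, filters, fold thresholds, tables, motifs and leaving out a library.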

Additional observations from a re-analysis of the deposited data

How the results depend on the processing

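The number of members called different between the libraries stayed at 0 in all 8 alternatives (2 scalings, 2 filters, a 1.5-fold threshold, the negative binomial test and 2 other sets of counts). No member had an absolute log2 ratio above 0.21 in the main setting, so the filters and the 1.5-fold threshold could not change this count. The median TPM of 40.02 was 44.1 in the second transcript table, 85.6 when TPM was rescaled over protein-coding genes alone, and 38.6 to 41.7 leaving out a library; the rescaling put 18 members, not 8, at 100 TPM. The median percentile of 81.0 was 91.0 among all annotated protein-coding genes and 80.4 to 81.6 leaving out a library. Summed rather than median TPM was 387 for glycosidases, 1156 for lipid hydrolases and carriers, 386 for membrane proteins, 1036 for proteases, 291 for the proton pump, 28.5 for sulfatases and 80.2 for transcription factors, so the lipid group, through Psap, passed the proteases. The median percent of TPM in coding transcripts was 88.2, 80.8 in the second table and 87.7 to 88.05 leaving out a library. The motif count of 6 was 13 with CACGTG and 0 with the 10-base form. No paired analysis was possible because there is 1 group. With 2 libraries, differences under the spread between them were not detectable, and transcript shares rest on estimation.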
